A study of Mus musculus with 162 samples.

Results

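The 9 genes described here encode or control MHC class II, the surface complex that presents peptides to CD4+ T cells. They are H2-Aa, H2-Ab1, H2-Eb1, Cd74, Ciita, H2-DMa, H2-DMb1, H2-Oa and H2-Ob, and they were taken by gene symbol from a count table of 53686 rows, which held all 9. The table covers bulk mRNA libraries from 18 young adult male wild type C57BL/6J mice. Food was withheld for 2, 8, 12, 18 or 22 h, and mice of the 0 h group had food at all times, with 3 mice at each of the 6 times. Each mouse gave 9 organs, 4 of them from the brain: the olfactory bulb (OB), the cerebellum (CBL), the brainstem (BST) and the remaining forebrain (BRN). The others were liver (LIV), stomach (STM), brown fat from between the shoulder blades (iBAT), and white fat from the perigonadal (pgWAT) and posterior-subcutaneous (psWAT) depots. No group carried an engineered allele or a drug. The replicates of an organ at a time were different mice, and all organs of a mouse share that animal. Which libraries share a mouse is not labelled and was taken from the fasting time and replicate number.

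An MHC class II molecule is a pair of an α and a β chain. H2-Aa and H2-Ab1 encode the chains of I-A, and H2-Eb1 encodes the β chain of I-E, whose α chain C57BL/6 mice lack. Cd74 encodes the invariant chain, which escorts new class II molecules and blocks their groove. H2-DMa and H2-DMb1 encode H2-M, which exchanges the invariant chain remnant for peptides, and H2-Oa and H2-Ob encode H2-O, an inhibitor of H2-M known from B cells. Ciita encodes the coactivator that switches these genes on from promoters holding an X box, bound by RFX, and a Y box, bound by NF-Y. B cells, dendritic cells and activated macrophages are the main class II expressing cells, and resting microglia carry little of it.

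Of the 9 genes, 7 lie on chromosome 17 (GRCm38). H2-Aa is at chr17:34282744-34287823 on the minus strand. On the plus strand are H2-Oa at chr17:34092340-34095234, H2-DMa at chr17:34119541-34139101, H2-DMb1 at chr17:34153072-34160230, H2-Ob at chr17:34238903-34254414, H2-Ab1 at chr17:34257689-34269419 and H2-Eb1 at chr17:34305867-34316674. Ciita is at chr16:10480059-10528418 on the plus strand. RefSeq promoters (GRCm38.p6) were at hand for 6 of the 9 genes. Windows from 4 of them, for 2 chains of the class II molecule and both chains of H2-O, are shown because these genes move together and apart below. Capitals mark the letters searched, GNAAC from the X box and TGATTGG from the Y box, and the letters were chosen after reading the sequences.
H2-Aa, chr17:34287855-34287924, minus strand: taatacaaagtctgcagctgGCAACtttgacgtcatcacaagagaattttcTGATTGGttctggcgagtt
H2-Eb1, chr17:34305756-34305824, plus strand: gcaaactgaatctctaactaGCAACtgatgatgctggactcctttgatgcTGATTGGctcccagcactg
H2-Ob, chr17:34238798-34238864, plus strand: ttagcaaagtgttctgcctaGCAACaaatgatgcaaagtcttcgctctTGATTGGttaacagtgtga
H2-Oa, chr17:34092283-34092340, plus strand: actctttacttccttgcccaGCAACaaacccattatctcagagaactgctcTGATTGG

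GNAAC stood 23 to 26 bases before TGATTGG in these 4 windows. With a spacing of 15 to 45 bases allowed, this order was found in 5 of the 6 genes with a promoter, the fifth being H2-DMb1. Among 32851 promoters searched over the 250 bases before the start, 0.365% held the order on the transcribed strand and 0.721% on either strand. TGATTGG alone was in 3.64% of them (7.23% on either strand) and GNAAC alone in 55.2% (79.6%). The H2-DMa promoters did not hold TGATTGG, which says only that these letters are not in those windows.

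The study's methods set some shallow libraries aside, and the same ones were left out here. These were 5 libraries with 130701 to 4590060 counts, and the retained libraries held 3045845 to 27801717 counts. Levels are given as CPM, the count of a gene scaled by the library's total, and 3 counts, the limit that a count of 0 allows, were worth 0.108 to 0.985 CPM in the retained libraries; such limits cover counting error only. In bulk tissue, fewer cells of a type and less RNA per cell cannot be told apart. The psWAT library of 12 h replicate 3 held cerebellar marker genes at a summed 1628 CPM against a median of 0.408 CPM over psWAT, and the psWAT library of 8 h replicate 1 was nearest to pgWAT. STM libraries also held keratinocyte markers.

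White adipose tissue held the highest levels of all 9 genes, and psWAT exceeded pgWAT for each. H2-Aa had a lowest, median and highest level of 255, 1911 and 3247 CPM in psWAT (n = 17) and of 224, 565 and 848 CPM in pgWAT (n = 18). It was at 21.5, 55.7 and 165.1 CPM in iBAT, at 35.1, 52.6 and 68.5 CPM in STM and at 21.2, 33.2 and 58.8 CPM in LIV. The brain organs were lowest, with medians of 8.40 CPM in OB, 4.26 CPM in BST, 3.28 CPM in BRN and 3.01 CPM in CBL. Every brain library, with at most 12.4 CPM, lay below every library of the other 5 organs, with at least 21.2 CPM.

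**Figure D1:**
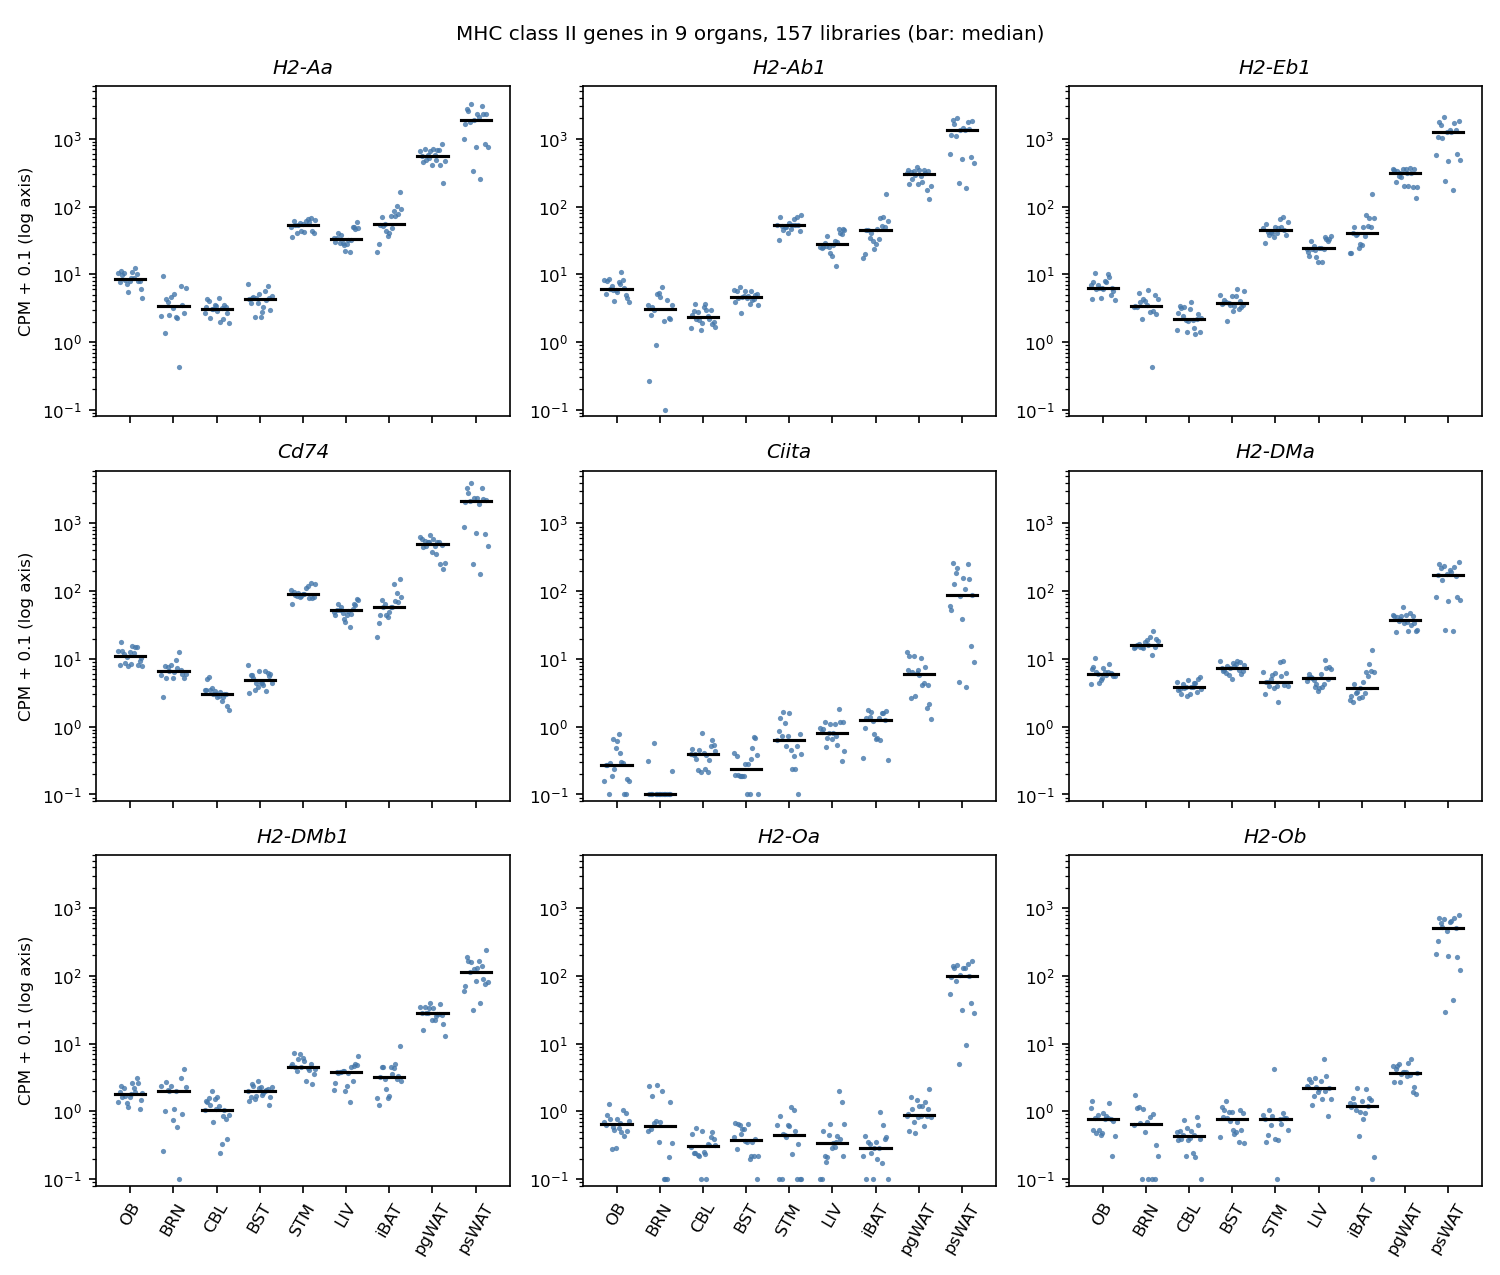
Level of each of the 9 genes (CPM + 0.1, log axis) in every retained library, by organ, with 1 point a library and a line at the organ's median. psWAT and pgWAT stand at the top for all 9 genes, H2-Oa and H2-Ob stand apart in psWAT only, and H2-DMa is the gene for which BRN (median 16.0 CPM) comes next after white fat.

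H2-Ab1, H2-Eb1 and Cd74 followed the same order of organ classes, although Cd74 lies on chromosome 18, apart from the class II locus. Their psWAT medians were 1347, 1258 and 2177 CPM and their pgWAT medians 299, 313 and 501 CPM. In iBAT, STM and LIV their medians lay between 23.9 CPM (H2-Eb1 in LIV) and 89.8 CPM (Cd74 in STM), and in the brain organs between 2.12 CPM (H2-Eb1 in CBL) and 11.1 CPM (Cd74 in OB). Levels of different genes can be compared only per length, and here the order hung on the length taken. Per kilobase of all exon bases of a gene, the psWAT medians were 1296 CPM per kb for Cd74, 647 for H2-Eb1, 525 for H2-Ab1 and 503 for H2-Aa. Per kilobase of 1 transcript a gene, a choice made after seeing the data, they were 1694 for H2-Aa, 1544 for Cd74, 1112 for H2-Ab1 and 754 for H2-Eb1, so H2-Aa went from the lowest of these 4 to the highest.

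All 36 pairs of organs were tested in 1 fit of the retained libraries (edgeR's quasi-likelihood test, Benjamini-Hochberg adjusted p under 0.05 and an absolute log2 fold change, log2FC, over 1). Of the 324 tests of a gene in a pair, 242 were called, beside 50.1% of all tests over all genes. Among STM, LIV and iBAT 2 of 27 were called, beside 49.8% of all tests in those pairs, and among the brain organs 20 of 54, beside 24.6%. Genes entered this fit when they passed the filter on low counts in at least 1 organ. Ciita failed that filter in LIV and every brain organ, H2-Oa in all but BRN and white fat, and H2-Ob in BRN, CBL and STM. Tests of these genes between such organs thus rest on low counts. Between a brain organ and STM, LIV or iBAT 89 of 108 were called, beside 59.2%, between those 3 organs and white fat 52 of 54, beside 48.2%, and between a brain organ and white fat 70 of 72, beside 58%. The share called was lowest among STM, LIV and iBAT. For H2-Aa, psWAT was above pgWAT (log2FC 1.33 ± 0.18 SE), pgWAT above iBAT (2.55 ± 0.19) and LIV above OB (3.01 ± 0.19). The neighbours STM and LIV (0.06 ± 0.18, adjusted p = 0.774) and BST and BRN (0.18 ± 0.21, adjusted p = 0.483) did not differ beyond their spread.

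Ciita was low outside white fat. It had a median of 88.5 CPM in psWAT, with a range of 3.77 to 261 CPM, and of 5.94 CPM in pgWAT, with a range of 1.18 to 12.6 CPM. Its medians were 1.17 CPM in iBAT, 0.721 CPM in LIV and 0.528 CPM in STM, and 13 of 16 BRN libraries listed it at 0. Low counts thus carry the order of Ciita among the brain organs. Ciita shares 3.45% of its exon bases with Dexi on the opposite strand.

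The chains of H2-M differed from each other in the brain. H2-DMb1 kept the order of organ classes of the class II chains, though not that among iBAT, LIV and STM or among the brain organs. Its medians were 115.2 CPM in psWAT, 27.8 CPM in pgWAT, 3.13 to 4.49 CPM in iBAT, LIV and STM, and 0.963 to 1.899 CPM in the brain organs. H2-DMa had medians of 173 CPM in psWAT and 37.7 CPM in pgWAT, and BRN came next at 11.2, 16.0 and 25.9 CPM (lowest, median, highest). The other medians of H2-DMa were 7.23 CPM for BST, 5.99 CPM for OB, 5.05 CPM for LIV, 4.46 CPM for STM, 3.76 CPM for CBL and 3.59 CPM for iBAT.

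H2-DMa was higher in BRN than in OB (log2FC 1.52 ± 0.17 SE), BST (1.17 ± 0.17) and CBL (2.26 ± 0.17), and also higher than in STM (1.33 ± 0.17) and iBAT (1.23 ± 0.17), by edgeR. Against LIV the difference was 0.80 ± 0.17 (adjusted p = 6.66e-06), under the fold limit, and 1.66 when libraries were scaled by total counts alone. Per kilobase of exon, H2-DMa over H2-Aa had a median of 5.52 in BRN, 1.86 in BST and 1.49 in CBL, against 0.0748 in pgWAT and 0.101 in psWAT. Per kilobase of 1 transcript a gene, the same medians were 3.41, 1.15 and 0.917, against 0.0462 and 0.0623. These ratios were chosen after the values were seen and were not tested. H2-DMa shares 10.4% of its exon bases with Brd2 on the opposite strand, and whether the counting used strand is not given in the sources used here. The part of Brd2 reads in the BRN level was not tested.

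H2-Oa and H2-Ob, the chains of H2-O, were low outside psWAT. H2-Ob had a lowest, median and highest level of 29.4, 507 and 799 CPM in psWAT and of 1.69, 3.62 and 5.73 CPM in pgWAT. Its other medians were 2.15 CPM in LIV, 1.12 CPM in iBAT and 0.327 to 0.673 CPM in STM and the brain organs. H2-Oa was at 4.93, 99.4 and 167.2 CPM in psWAT and at 0.375, 0.786 and 2.06 CPM in pgWAT, with medians of 0.188 to 0.542 CPM in the other organs. The lowest psWAT library exceeded the highest library of any other organ for both genes. H2-Oa shares 22.8% of its exon bases with BC051537 on the opposite strand.

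Between psWAT and pgWAT all 9 genes were called higher in psWAT, beside 44.1% of all genes called in either direction. The log2FC was 6.60 ± 0.27 SE for H2-Ob, 6.28 ± 0.33 for H2-Oa and 3.86 ± 0.29 for Ciita. It was 1.77 ± 0.18 for H2-DMb1, 1.76 ± 0.16 for H2-DMa, 1.73 ± 0.19 for H2-Ab1, 1.70 ± 0.18 for Cd74, 1.64 ± 0.18 for H2-Eb1 and 1.33 ± 0.18 for H2-Aa. All 9 were called in each of 9 other settings, where H2-Aa ranged from 1.27 to 1.65 and H2-Ob from 6.49 to 6.91. White fat RNA was extracted with a kit of its own, which both depots share.

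No label gives the mouse, so libraries were matched across organs by fasting time and replicate number. Libraries of 2 organs matched this way had a mean correlation of 0.047, against -0.00099 for libraries of other mice. The matching is thus an assumption. By it, both depots of the same mouse were retained for 17 mice. H2-Ob was higher in psWAT in 17 of 17, by 8.40-fold to 361-fold with a median of 122.7-fold, and H2-Oa in 17 of 17 with a median of 85.4-fold. Ciita was higher in 16 of 17 mice (median 13.7-fold), and H2-Aa in 15 of 17 (0.517-fold to 6.19-fold, median 2.96-fold). Per kilobase of exon, the summed H2-O chains over the summed H2-M chains were at 0.339 to 1.61 (median 1.26) in psWAT and at 0.0249 to 0.0943 (median 0.0472) in pgWAT. The depots thus did not overlap in this ratio, which was chosen after the values were seen, and per kilobase of 1 transcript a gene its medians were 1.36 and 0.050003.

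**Figure D2:**
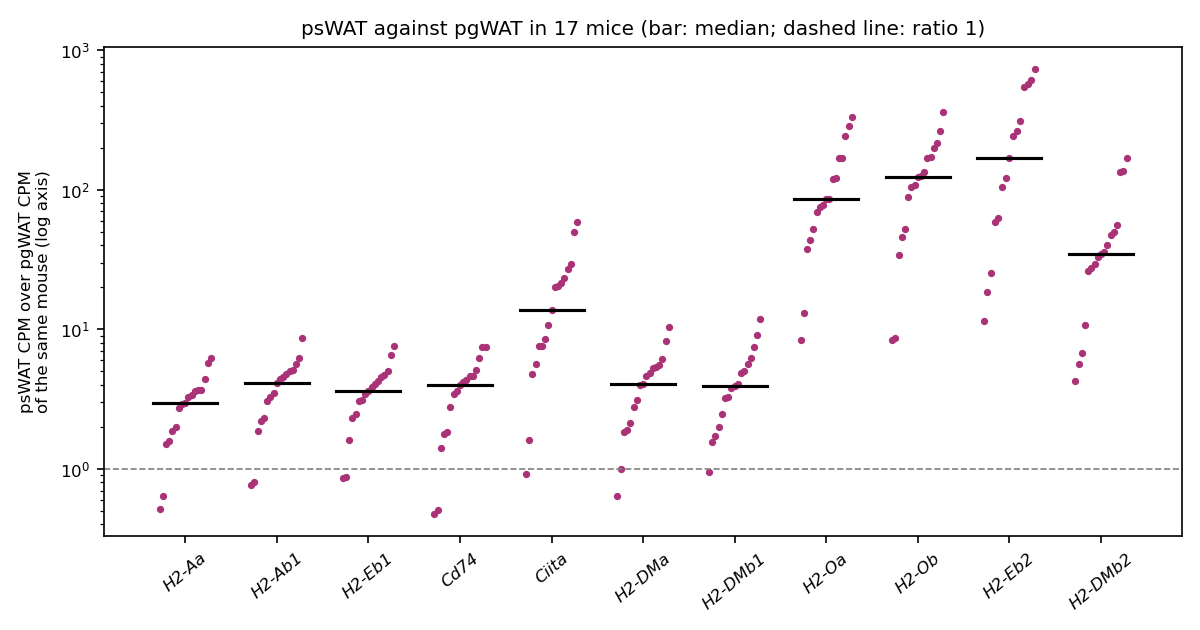
Level in psWAT over the level in pgWAT of the same mouse (fold, log scale), with 1 point for each of 17 mice and a line at each gene's median. Mice were matched by fasting time and replicate number. H2-Oa and H2-Ob lie above 1 in all 17 mice, with medians of 85.4 and 122.7, and H2-Aa lies above 1 in 15.

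Beyond the 9 genes, the pathway lists were compared between the depots beside the 44.1% of all genes called in either direction. H2-Eb2 and H2-DMb2, further chains of I-E and H2-M, were both called higher in psWAT, with medians of 168.8-fold and 34.5-fold over the 17 mice. Of 7 regulators of class II genes, 3 were called, all higher in psWAT (Creb1, Nfya and Rfx5, a subunit of RFX), a share near that of all genes. Rfx5 had a median of 75.3 CPM in psWAT and 11.4 CPM in pgWAT. The costimulatory genes Cd40, Cd80 and Cd86 were higher, 3 of 3, with medians of 66.8 and 2.84 CPM for Cd40. Of 7 antigen processing genes 4 were called, Ctss and Ifi30 higher and Ctsb and Ctsl lower.

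The psWAT libraries held markers of lymphoid tissue. Summed over 7 B cell markers, the level was 165.6 to 4383 CPM with a median of 2523 CPM in psWAT, against a median of 14.1 CPM in pgWAT, and 7 of 7 were called higher in psWAT. For T cells 7 of 7 markers were higher (medians of 1030 and 9.42 CPM), for lymph node stroma 5 of 5 (306 and 6.59 CPM) and for dendritic cells 6 of 7 (404 and 40.3 CPM). Macrophage markers went the other way, with 4 of 7 lower in psWAT (394 and 941 CPM). The 3 adipocyte markers were lower in psWAT, 3 of 3, at a summed 55.02 to 5037 CPM (median 839 CPM) against a median of 8665 CPM in pgWAT. The part of these cells in the depot difference was not tested.

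Within psWAT the 4 genes H2-Aa, H2-Ab1, H2-Eb1 and Cd74 together varied from 797 to 11353 CPM. H2-Aa was at 1005, 1662 and 2792 CPM at 0 h, 2592, 1744 and 3247 CPM at 2 h, 329, 1911 and 756 CPM at 8 h, 2290, 2067 and 255 CPM at 12 h, 3061, 2303 and 836 CPM at 18 h, and 2305 and 746 CPM at 22 h. The times overlapped throughout. The lowest libraries were 12 h replicate 3 and 8 h replicate 1, the same that stood apart above. On the log2 scale, over these 17 libraries, the 4-gene sum had a Pearson r of 0.97 with the B cell sum and 0.95 with lymph node stroma. It was 0.896 with dendritic cells, 0.868 with T cells, 0.59 with macrophages and -0.56 with adipocytes. These points share library and dissection, so the values only describe the libraries.

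**Figure D3:**
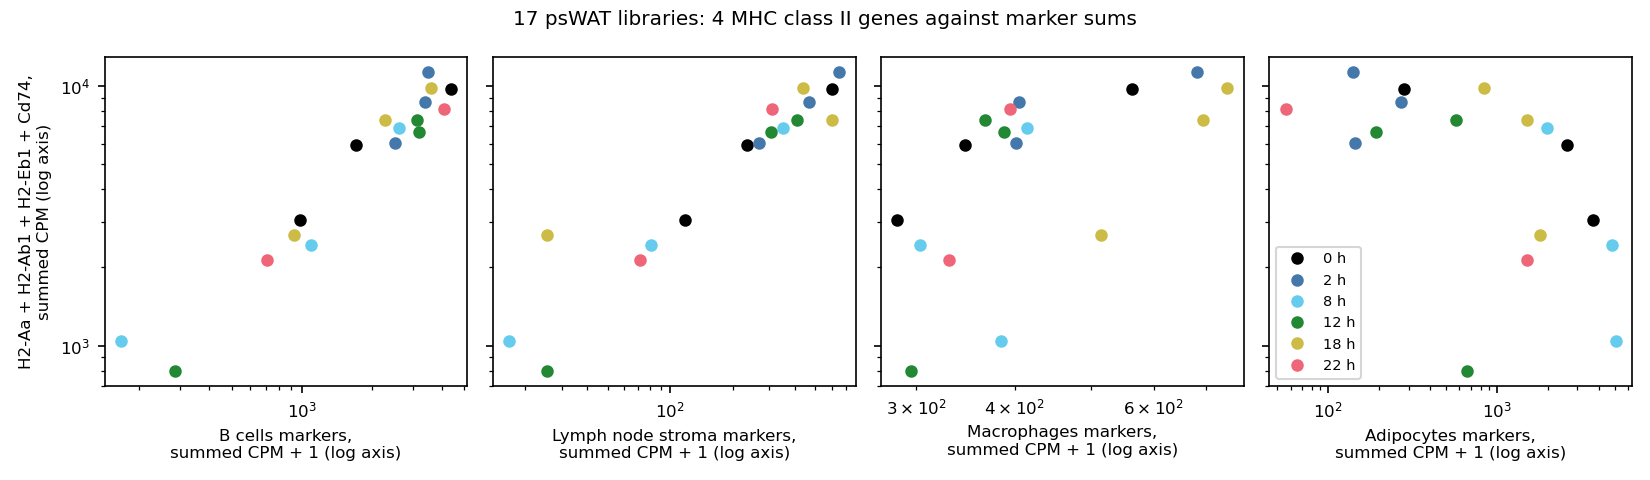
Summed level of H2-Aa, H2-Ab1, H2-Eb1 and Cd74 (CPM, log axis) in the 17 psWAT libraries against summed B cell, lymph node stroma, macrophage and adipocyte markers (CPM + 1, log axes), with 1 point a library coloured by fasting time. The libraries with the lowest B cell sums are also those with the lowest 4-gene sums (from 797 CPM).

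Macrophage markers did not follow the order of the class II genes across organs. Summed over 7 of them, the medians were 941 CPM in pgWAT and 394 CPM in psWAT, the highest of the 9 organs. They were 254 CPM in BRN, 229 CPM in OB, 137.5 CPM in BST and 80.3 CPM in CBL, and 153.5 CPM in LIV, 93.9 CPM in iBAT and 81.8 CPM in STM. The 5 microglia markers had summed medians of 100.6 to 225.4 CPM in the brain organs, of 9.35 to 37.4 CPM in LIV, iBAT and STM, and of 115.5 CPM in pgWAT and 159.7 CPM in psWAT. H2-Aa was lower in every brain library than in any library of LIV, iBAT or STM.

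Fasting was tested in each organ by edgeR in 3 ways: any difference between the 6 times (adjusted p under 0.05), each time against 0 h (with an absolute log2FC over 1 as well), and a slope over hours. The genes that passed the filter on low counts were 9 in pgWAT and psWAT, 8 in iBAT, 6 in CBL and 7 in each other organ. Calls fell to iBAT, LIV, OB, CBL and STM. Between the times, 5 genes were called in iBAT, 4 in LIV, 2 in OB and 0 in CBL, STM, BRN, BST, pgWAT and psWAT, beside 29%, 16%, 15.4%, 2.99%, 6.55%, 0.00597%, 0.107%, 0% and 0% of all genes in that order. Against 0 h, 7 of 40 tests were called in iBAT, beside 6.15% of all tests over the 5 later times, and none in LIV (1.03%), OB (0.115%), CBL (0.136%), STM (1.79%), BRN (1.8%), BST (0%), pgWAT (0.00122%) or psWAT (0%). A slope was called for 5 genes in iBAT (22.7% of all genes), 1 in CBL (1.97%) and 1 in STM (22.4%), and for none in LIV (9.05%), OB (0.317%), BRN (5.88%), BST (0.0238%), pgWAT (1.22%) or psWAT (0%). For these organs without a call, the unadjusted p was under 0.05 in 9 of 35 tests against 0 h in LIV, 5 in OB, 2 of 30 in CBL, 1 in STM, 1 in BST and 0 in BRN, and DESeq2 called 0 of them. It was also under 0.05 for 1 gene between the times in CBL and 1 in BST and for 3 slopes in LIV, and DESeq2 called none of these either.

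In iBAT, 6 of the 8 tested class II genes were called higher at 22 h than at 0 h by edgeR, and none at an earlier time. The median log2FC over the 8 genes was 0.58 at 2 h, with 8 of 8 above 0, -0.045 at 8 h with 3, 0.80 at 12 h with 6, 0.96 at 18 h with 7 and 1.77 at 22 h with 6. The unadjusted p was under 0.05 in 20 of the 40 tests against 0 h. H2-Aa was at 21.5, 27.7 and 53.6 CPM at 0 h, 68.97, 51.7 and 55.7 CPM at 2 h, 43.1, 36.95 and 40.4 CPM at 8 h, 72.2, 48.6 and 85.5 CPM at 12 h, 71.7, 102.7 and 77.8 CPM at 18 h, and 165.1 and 90.7 CPM at 22 h. Both 22 h libraries were above all 3 at 0 h, which held for H2-Ab1, H2-Eb1, Cd74 and H2-DMa too but not for H2-DMb1 (2.72 and 9.19 CPM at 22 h, up to 3.13 CPM at 0 h). At 22 h against 0 h, H2-Eb1 (log2FC 1.91 ± 0.33 SE), H2-Ab1 (1.89 ± 0.37), H2-DMa (1.87 ± 0.39), H2-Aa (1.81 ± 0.31), Cd74 (1.72 ± 0.32) and H2-DMb1 (1.497 ± 0.497) rose, with edgeR adjusted p of 0.0232 for H2-DMb1 and below that for the others. These are 6 of 8 tested genes, beside 12.6% of all genes called higher and 29.7% called in either direction at 22 h.

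H2-Ab1 was at 17.3, 19.7 and 44.4 CPM at 0 h and at 152.4 and 60.9 CPM at 22 h. Cd74 was at 21.01, 33.9 and 44.8 CPM at 0 h and at 152.4 and 81.7 CPM at 22 h. For both, replicate 2 was the higher of the 22 h libraries. H2-DMa was at 2.34, 2.71 and 2.19 CPM at 0 h and at 13.6 and 6.34 CPM at 22 h, and its slope of 0.077 ± 0.013 log2 per hour was the steepest of those called in iBAT. H2-Aa, H2-Ab1, H2-Eb1 and Cd74 also had a slope, of 0.055 to 0.068, so 5 of 8 genes did, beside 22.7% of all genes. The same 5 genes differed between the 6 times, beside 29% of all genes. Ciita was not called at 22 h (log2FC -0.16 ± 0.81 SE). H2-Ob was called lower at 22 h (log2FC -3.90): it had 50 counts in the 3 libraries at 0 h and 1 count in the 2 at 22 h, a ratio of 0.0683 with an exact 95% interval of 0.00170 to 0.398 for counting error only.

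**Figure D4:**
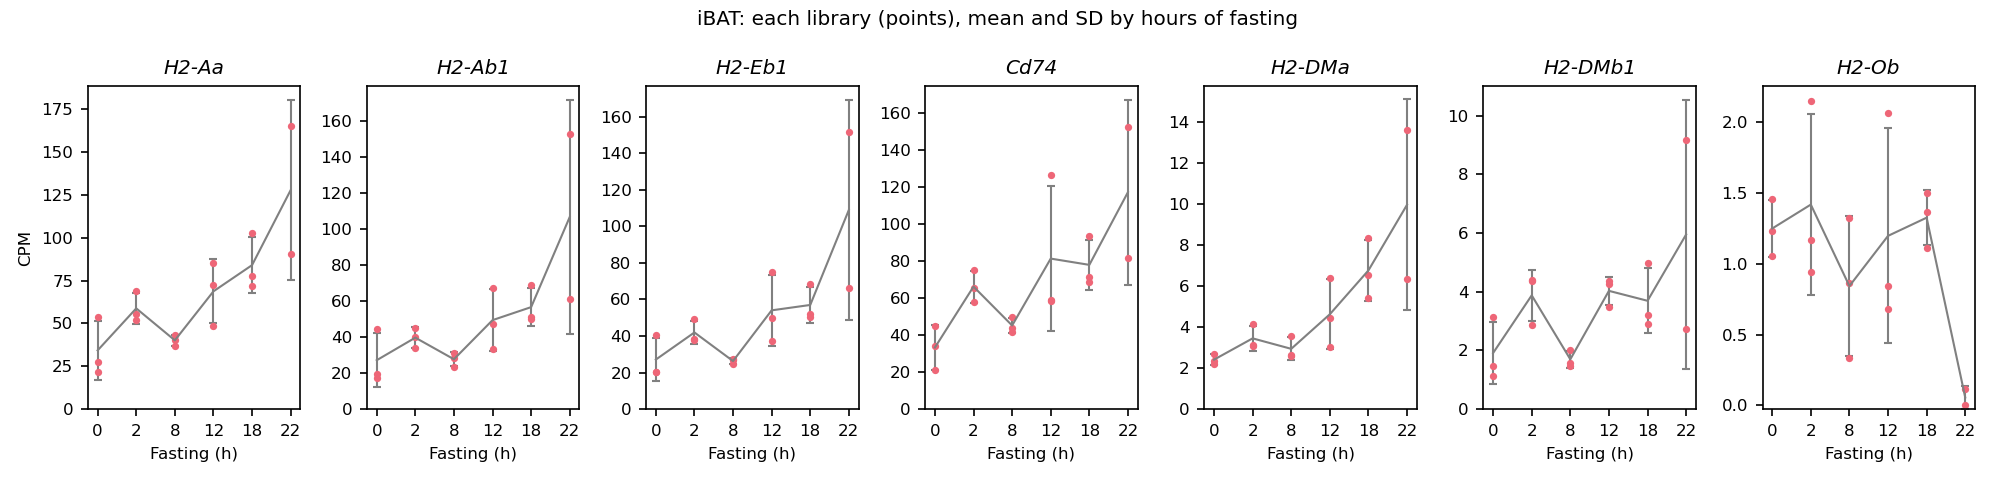
Levels of 7 class II genes in iBAT (CPM, linear axes) against hours of fasting, with 1 point a retained library and a line and bars for the mean and SD. The 2 libraries at 22 h (165.1 and 90.7 CPM for H2-Aa) lie above the 3 at 0 h (21.5, 27.7 and 53.6 CPM), and H2-Ob is lowest at 22 h.

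The 22 h group of iBAT had 2 libraries, and genes of all kinds shifted there by transcript length. At 22 h against 0 h the median log2FC was 1.12 for genes under 1 kb and -1.12 for genes over 5 kb, against 0.13 and -0.05 in LIV. The same medians were 0.82 and -0.48 in BRN and 0.59 and -0.25 in pgWAT, and in STM they ran the other way (-0.32 and 0.16). With an offset for length, H2-Eb1 was at 1.45, H2-DMa at 1.38, H2-Ab1 at 1.14, Cd74 at 1.07, H2-Aa at 1.00 and H2-DMb1 at 0.88 (adjusted p = 0.180), so the last 2 were no longer called. The value of H2-Ob with the offset is not given here. Its transcript taken was 2670 bases long, and genes of 2 to 3 kb had a median log2FC of 0.038 in iBAT at 22 h. Of the 5 genes called between the times, 3 stayed with the offset. Of the 5 slopes, 4 stayed with the offset and 0 with the lane as a covariate, and without 22 h replicate 2 there were 2. The 22 h libraries were in lanes 1 and 3, which held no other retained iBAT library, so lane and 22 h cannot be told apart. Without that library 5 of the 7 calls at a time and 3 of the 5 between the times were left, and without replicate 2 of every time 0 were. Each of these fits has 1 library at 22 h, which is assumed to vary like the other groups. DESeq2 made 11 calls at a time in iBAT, adding Cd74 at 12 and 18 h and H2-Aa and H2-DMa at 18 h. Without the 22 h libraries, 0 of the 5 slopes was called by edgeR (0.045 to 0.065 log2 per hour, adjusted p of 0.145 to 0.315). The 22 h replicate 2 was also the only retained iBAT library of its library series, and with the series as a covariate 5 of 7 calls at a time, 3 of 5 between the times and 2 of 5 slopes stayed, again with replicate 3 alone standing for 22 h. Its T cell markers summed to 26.3 CPM, against 2.83 CPM in the other 22 h library, 1.59 to 2.51 CPM at 0 h and up to 8.93 CPM at the times between. Summed macrophage markers were at 20.5, 44.1 and 94.2 CPM at 0 h and at 122.9 and 97.0 CPM at 22 h. Dendritic cell markers summed to 22.3, 30.2 and 27.05 CPM at 0 h and to 12.4 and 21.5 CPM at 22 h, and B cell markers to 3.08, 3.24 and 3.03 CPM and to 2.22 and 0.792 CPM, so both sums lay below those of 0 h in both 22 h libraries. The part of these cells in the result was not tested.

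**Figure D5:**
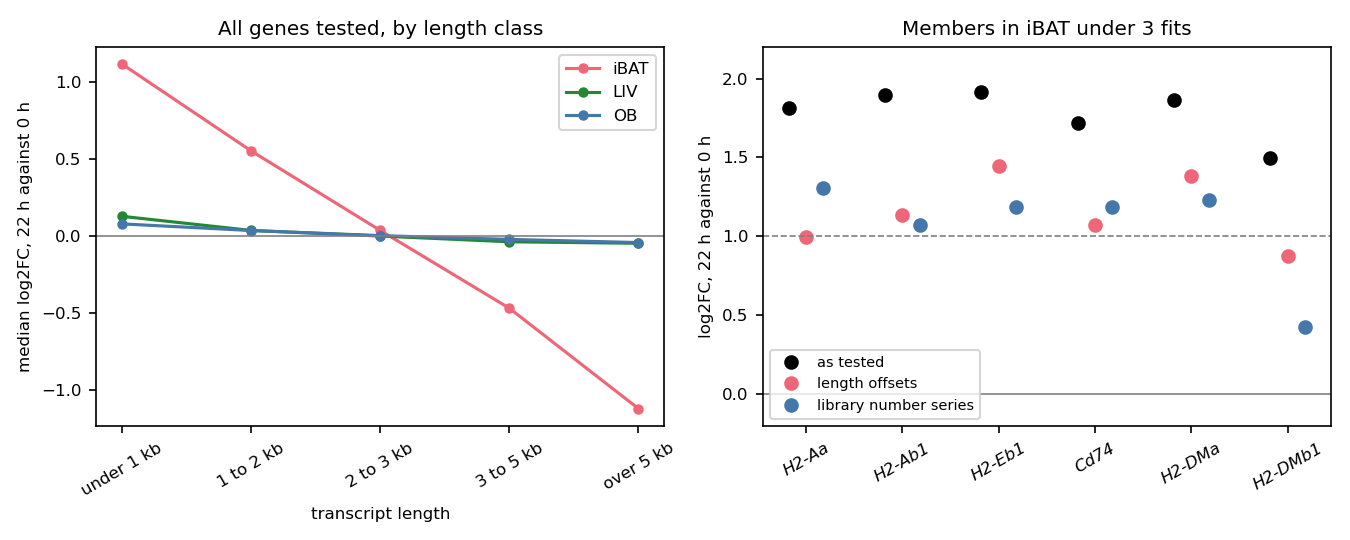
Left, median log2FC of all tested genes at 22 h against 0 h by class of transcript length in iBAT, LIV and OB; right, log2FC of 6 class II genes in iBAT in the test as reported, with length offsets and with the library series as a covariate, with a dashed line at the fold limit of 1. In iBAT the median goes from 1.12 under 1 kb to -1.12 over 5 kb, and the 6 genes move toward or below the limit (H2-DMb1 from 1.497 to 0.88 and 0.42).

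Other pathway genes in iBAT at 22 h were mixed, beside 12.6% of all genes called higher and 17% called lower. Of 7 regulators, 4 fell: Rfx5 (log2FC -1.93 ± 0.48 SE), Nfya (-1.505 ± 0.304), Creb1 (-1.22 ± 0.27) and Nfyc (-1.07 ± 0.30). Of 7 antigen processing genes the proteases Ctss (1.35 ± 0.39) and Ctsd (1.28 ± 0.29) rose. The macrophage markers C1qa (1.98 ± 0.41) and C1qb (1.59 ± 0.47) rose, 2 of 7. With the length offset, Rfx5 (-1.43), Nfyc (-1.37), Nfya (-1.13), Ctsd (1.05) and C1qa (1.12) were still called, and Creb1 (-0.51), Ctss (0.68) and C1qb (0.77) were not. Ctsb and Ctsl (both 1.24) were called in addition, beside 6.25% of all genes called higher and 8.74% lower under that offset.

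In LIV, H2-Aa, H2-Ab1, H2-Eb1 and Cd74 differed between the 6 times, 4 of 7 genes beside 16% of all genes (edgeR adjusted p of 0.0038, 0.0060, 0.0105 and 0.0052). H2-Aa was at 34.3, 30.2 and 34.8 CPM at 0 h, 41.2, 28.99 and 37.3 CPM at 2 h, 28.6, 27.2 and 22.3 CPM at 8 h, 28.004, 32.2 and 21.2 CPM at 12 h, 31.7, 49.9 and 49.7 CPM at 18 h, and 46.4, 58.8 and 48.8 CPM at 22 h. Its 3 libraries at 22 h lay above the 3 at 0 h, and its 3 at 8 h below them. H2-Ab1 was at 25.3, 23.998 and 25.5 CPM at 0 h and at 38.9, 45.9 and 45.1 CPM at 22 h, a log2FC of 0.74 ± 0.19 (adjusted p = 0.0362) that is under the fold limit. H2-Eb1 was at 23.5, 21.6 and 18.5 CPM at 0 h and at 31.4, 32.6 and 36.5 CPM at 22 h (log2FC 0.60 ± 0.17, adjusted p = 0.0515). Cd74 was at 49.8, 43.9 and 53.4 CPM at 0 h and at 62.3, 76.3 and 73.7 CPM at 22 h (log2FC 0.48 ± 0.15, adjusted p = 0.0741). For both, the 22 h libraries lay above the 0 h libraries.

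The LIV calls were kept, 4 of 4, with the sequencing lane as a covariate and with the length offset, and without replicate 2 of every time 0 of 4 was left and without replicate 3 of every time 2 were. All 0 h libraries of LIV were in lane 1 and all 22 h libraries in lane 2. Summed macrophage markers were at 143.03, 143.02 and 249 CPM at 0 h, at 133.1, 111.8 and 127.0 CPM at 8 h and at 222, 217 and 184 CPM at 22 h. The part of these cells in the LIV calls was not tested.

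In OB, H2-Aa (adjusted p = 0.0369) and H2-Ab1 (0.0428) differed between the times by edgeR, 2 of 7 genes beside 15.4% of all genes. H2-Aa was at 10.3, 7.56 and 11.1 CPM at 0 h and at 7.78, 5.94 and 4.41 CPM at 22 h, and the groups overlapped. Over the 18 OB libraries, H2-Aa and H2-Ab1 had a Pearson r of 0.75 and 0.79 with macrophage markers. It was 0.67 and 0.76 with microglia markers and 0.35 and 0.16 with B cell markers. The part of these cells in the OB calls was not tested. All 0 h libraries of OB were in lane 3 and all 22 h libraries in lane 4. Neither gene was called with the lane as a covariate or with the length offset, and leaving out single libraries or replicate numbers lost the call of H2-Aa in 12 of 21 fits and of H2-Ab1 in 15 of 21. In CBL the slope of Cd74 was -0.038 ± 0.0087 log2 per hour (adjusted p = 0.0238, beside 1.97% of all genes), from 3.33, 3.35 and 4.98 CPM at 0 h to 2.91, 1.89 and 1.68 CPM at 22 h, and it was not called without 0 h replicate 3, 22 h replicate 2 or 22 h replicate 3, nor when replicate 1, 2 or 3 was left out at every time. Depth in CBL ranged from 20396385 to 22071004 counts a library at 0 h and from 6487419 to 9487976 once food was withheld, and the part of depth in this slope was not tested. In STM the slope of Ciita was -0.091 ± 0.031 (adjusted p = 0.0415, beside 22.4% of all genes), from 0.528, 0.774 and 1.24 CPM to 0, 0.687 and 0.292 CPM, and it was lost with total counts alone, with no filter on low counts and with the lane as a covariate (-0.12, adjusted p = 0.739). In STM all libraries of 0 and 2 h were in lane 5 and all of 12 to 22 h in lane 6, so lane and time ran largely together.

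In the white depots no gene was called for fasting by edgeR in any of the 3 ways. In psWAT no test had an unadjusted p under 0.05, and DESeq2 called none. In pgWAT, 1 of 45 tests against 0 h and 1 of 9 slopes, that of Ciita (-0.061 log2 per hour, adjusted p = 0.117), had one. DESeq2 called Ciita at 22 h in pgWAT (log2FC -1.89, adjusted p = 0.0341), where it was at 12.6, 6.85 and 11.1 CPM at 0 h and at 4.10, 2.06 and 1.18 CPM at 22 h. The transcript taken for Ciita was 6007 bases long, and genes over 5 kb had a median log2FC of -0.25 in pgWAT at 22 h. The DESeq2 call took no account of length. BRN and BST also had no call.

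In 1 edgeR fit of all organs, the slope over hours differed between the 9 organs for 5 of the 9 genes (Cd74, H2-DMa, H2-Eb1, H2-Ab1 and H2-Aa), beside 29.9% of all genes. Slopes of these 5 genes were called in iBAT, and in CBL that of Cd74 was called in the other direction. The 5 iBAT slopes were not called without the iBAT 22 h libraries or with the lane as a covariate. The fit of all organs was not repeated in those settings.

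Likeness to the mean of H2-Aa, H2-Ab1, H2-Eb1 and Cd74 was ranked across organs over the 11679 genes that passed the filter in all 9. Ciita, H2-Oa and H2-Ob were not among them, nor was any other gene too low in 1 organ. Of the genes ranked, the likest others in their 9 organ means were Vrk2, Atp10d, Trim12c and Samd9l (Pearson r of 0.98 to 0.99 over 9 organs). Among members, H2-DMb1 had an r of 0.96 and H2-DMa of 0.74, rank 1355. Over the deviations of the retained libraries from their organ means the likest others were Rac2 (0.74) and Lyz2 (0.72), after the member H2-DMa (0.76). H2-Aa, H2-Ab1, H2-Eb1 and Cd74 are part of the mean, so their own high ranks were largely built in. Within psWAT alone, where 16721 genes were ranked, the likest others were Napsa (0.99), Cxcr5 (0.98) and Fcrla (0.98).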

How the data were processed

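Bulk mRNA of 9 organs was sequenced from TruSeq stranded libraries. The authors aligned reads with TopHat2 2.1.1 to GRCm38 p5 and deposited raw counts per gene, made with HTSeq 0.9.1; the strand setting is not given in the sources used here. Groups came from the sample titles, and the animal was taken from the fasting time and replicate number in them. Counts were tested with edgeR 4.0.16 (TMM, robust quasi-likelihood, Benjamini-Hochberg over all genes kept) in R 4.3.3; a gene was kept if 3 libraries reached the CPM worth 10 counts in the median library. CPM used the library total. DESeq2 1.42.0, RLE factors, total counts, no filter, lane, library series, a replicate or animal block, all libraries and single replicates left out were tried; length offsets (lowess span 0.3) and the fits without psWAT 12 h replicate 3 or the iBAT 22 h libraries were chosen after seeing the data. Scripts were tested on simulated data. All 9 genes are named, list genes by their calls. The members and lists were chosen with earlier results of these data known. March1 and March8 were not analysed here. Overlaps and levels per kilobase used Gencode M21 exons, the latter also 1 transcript a gene (APPRIS principal, else the longest), chosen after seeing the data. A further gene list is not reported here.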

Additional observations from a re-analysis of the deposited data

Results flagged for a closer look

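The slope over hours of fasting differed between the 9 organs for 5 of the 9 genes, beside 29.9% of all genes (F test in 1 edgeR fit). The adjusted p was 0.0126 for Cd74, 0.0128 for H2-DMa, 0.0178 for H2-Eb1, 0.0349 for H2-Ab1 and 0.0491 for H2-Aa. It was 0.0520 for H2-DMb1, 0.165 for H2-Oa, 0.318 for Ciita and 0.815 for H2-Ob. The fit took the libraries as independent although organs share mice. It was not repeated without the iBAT 22 h libraries, without which none of the iBAT slopes of these 5 genes was called.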

How the results depend on the processing

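Counting each gene once per organ or pair of organs tested, there were 11 calls between the times, 7 at a time against 0 h, 7 for a slope and 242 between organs. Length offsets left 7 of the 11, and DESeq2 called 12 in place of 7 at a time. With the lane as a covariate 0 of the 6 slopes in iBAT and STM was kept, and the total of 1 is the CBL slope, for which all libraries share 1 lane and no such fit could be made. With the library series 2 of the 5 iBAT slopes were kept, and the total of 4 includes the CBL and STM slopes, whose libraries share 1 series. Without the iBAT 22 h libraries the total was 2, the same CBL and STM slopes. Leaving out libraries or replicates gave 0 to 12, 0 to 9 and 0 to 8 in turn, the lowest without replicate 2 of every time. With only 0 h libraries, the log2FC of H2-Oa from BST to LIV turned from 1.03 to -0.53. With the replicate number as a block the counts were 12, 7 and 7, and with the animal as a block 242, of which 241 were among the original calls. Of the calls between organs, total counts alone kept 225, 0 h libraries only 220 and RLE factors 237. The replicate numbers share no mouse within an organ, and same-numbered libraries had a mean correlation of -0.073 to 0.159. The cause of these shifts was not tested. A gene listed at 0 in a library of BRN, STM or another organ is only known to lie below what that library's depth could show. The cause of the zeros was not tested.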
